A study of Mus musculus with 12 samples.

Results

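The genes described here encode adropin and other hormones and hormone-handling proteins that the liver makes: Enho, Bche, Lepr, Ahsg, Fetub, Angptl6, Inhbe, Inhbc and Gdf15. They were chosen by symbol. All 9 were found among the 38087 genes of the count table, and all 9 passed the filter on low counts that left 14170 genes for testing. RNA came from livers of germ-free male C57BL/6j mice, 13 to 16 weeks old, which were raised without a microbiota. One group (n = 6) was injected under the skin with rat ghrelin at 10 µg per mouse each day for 5 days, the other (n = 6) with phosphate-buffered saline (PBS). The PBS or ghrelin injection is described as given at zeitgeber time (ZT) 2, where ZT counts hours after lights on, and the livers carry the same time as a label. No label says whether each library comes from a separate animal, so p-values measure the spread between these samples, which may be technical. Each library is called a liver below for short, and n counts libraries. Every mouse lacked a microbiota, and both groups were injected.

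The liver releases peptides and glycoproteins that act on other organs, often called hepatokines. Ghrelin is a stomach hormone that acts through its receptor Ghsr on appetite and on growth hormone release, and in plasma it is inactivated when esterases remove its fatty acyl group. Adropin, encoded by Enho, is a short secreted peptide linked to the use of glucose and fat as fuel; in mouse liver Enho is a rhythmic gene under the nuclear receptors ROR and REV-ERB. Members of the TGF-beta superfamily are also made in liver: activin C (Inhbc), activin E (Inhbe), which restrains lipolysis in fat, and GDF15, a stress cytokine that lowers food intake through the receptor Gfral in the hindbrain.

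Enho spans chromosome 4, 41638144 to 41640324, on the minus strand in GENCODE M21 on GRCm38, the assembly also named mm10. It has 2 exons and an open reading frame of 76 codons. The coding sequence is shown because the peptide is so short that it can be read whole; it runs 5′ to 3′ with its stop codon, and capitals mark codons 34 to 76, which encode secreted adropin.
Enho: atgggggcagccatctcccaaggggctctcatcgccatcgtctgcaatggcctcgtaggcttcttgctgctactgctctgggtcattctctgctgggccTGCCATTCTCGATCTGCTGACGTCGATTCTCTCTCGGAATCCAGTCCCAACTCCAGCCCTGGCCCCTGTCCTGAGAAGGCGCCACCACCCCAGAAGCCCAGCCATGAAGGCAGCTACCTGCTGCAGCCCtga
For Inhbe, 30 bases of the RefSeq promoter on GRCm38.p6 (chr10:127352011-127352040, minus strand) are shown, because they hold the only copy of an element of the stress factor ATF4 in the promoters searched.
Inhbe promoter: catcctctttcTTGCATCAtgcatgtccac
Capitals mark TGATGNAA, here on the opposite strand, 181 to 174 bases before the RefSeq start site; the longer GENCODE transcript of Inhbe begins upstream of it. Promoter windows held 250 bases before to 50 after a start site, and 11 windows of Bche, Lepr, Ahsg, Fetub, Angptl6, Inhbe, Inhbc and Gdf15 were searched on both strands. Enho had no RefSeq promoter window available and was not searched. TGATGNAA was found in 3.97% of all 32851 windows of that length, and among the members searched only in that of Inhbe. The nuclear receptor half-site AGGTCA was found in 16.3% of all windows and in 1 window each of Inhbc and Gdf15. The E-box CACGTG was found in 7.15% of all windows and in 1 of Gdf15, and TTCNNNGAA, a letter pattern of STAT factors, in 8.3% of all windows and in none of these. A match is a description of letters, not a binding site.

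Levels per length differed widely between the members. They are given as CPM (a gene's count relative to its TMM-scaled library size) per kb of merged exons. Ahsg, which encodes fetuin-A, a carrier of calcium phosphate in plasma, stood at 3704 ± 244 CPM per kb (SD, n = 6) in PBS and ranked 18 of the 13930 tested genes with a known length. Its reads were 0.776 to 0.864% of all counts of a library. Fetub, encoding fetuin-B, an inhibitor of the egg protease ovastacin, followed at 225 ± 16.8 CPM per kb. Bche, a plasma cholinesterase that cleaves the acyl group from ghrelin, had 24.0 ± 4.65 CPM per kb. Inhbc had 14.3 ± 1.12, Enho 8.27 ± 0.889 and Angptl6, an angiopoietin-like factor, 6.25 ± 0.362 CPM per kb. At the low end lay Inhbe with 3.39 ± 1.27, Gdf15 with 1.58 ± 1.05 and Lepr, the leptin receptor, with 1.34 ± 0.559 CPM per kb. The order by mean was the same in the ghrelin group. In PBS the ranges of Gdf15 and Inhbe overlapped, as did those of Gdf15 and Lepr. In ghrelin the overlapping neighbours were Bche and Inhbc, Inhbc and Enho, Angptl6 and Inhbe, and Gdf15 and Lepr; all other neighbours in either group were apart. The place of Inhbe depends on its gene model: with the RefSeq gene span of 2.447 kb in place of the 5.319 kb of merged exons its PBS level was 7.36 CPM per kb.

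**Figure D1:**
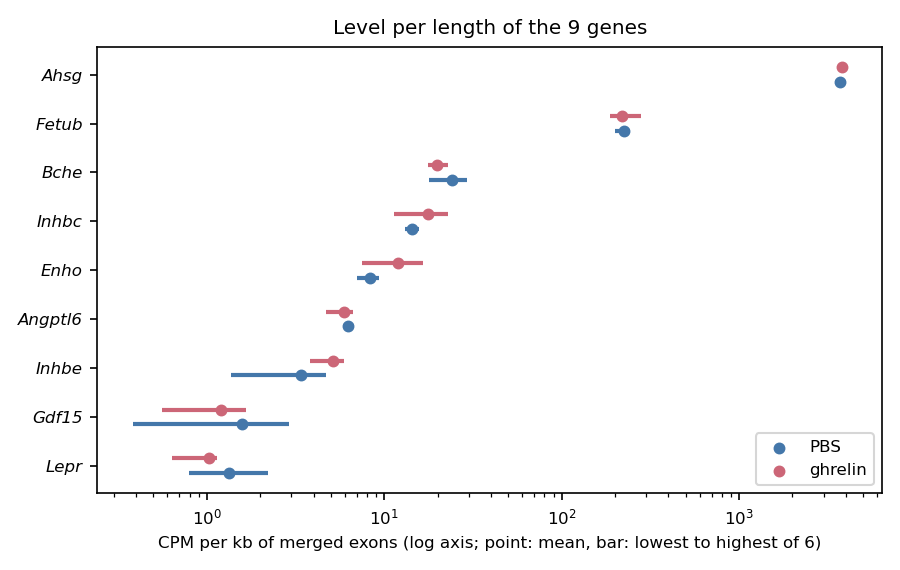
Levels of the 9 genes as CPM per kb of merged exons on a log axis; points are means of 6 livers and bars run from the lowest to the highest liver, PBS in blue and ghrelin in red. Ahsg at 3704 CPM per kb in PBS lies far above Gdf15 at 1.58 and Lepr at 1.34.

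None of the 9 genes passed the test between ghrelin and PBS. The test was the quasi-likelihood F test of edgeR, fitted on all 14170 genes, with a call at a Benjamini-Hochberg adjusted p under 0.05; it called 15 genes, 0.106% of those tested (0.0423% higher and 0.0635% lower in ghrelin). DESeq2 and limma voom also called 0 of the 9. Over all the genes that each tested, DESeq2 called 221 of 27402 and limma voom 16 of 14170. At an unadjusted p under 0.05 there were 4 members, Enho, Inhbe and Inhbc with the higher mean in ghrelin and Bche with the lower, where 13.4% of all tested genes were under that value (6.44% higher and 6.94% lower in ghrelin). As the members were taken up with earlier results known, that count is not evidence about them as a set. The median log2 fold change (ghrelin over PBS) of the 9 was -0.04, with 4 positive and 5 negative, beside a median of 0 with 7087 positive and 7083 negative over all tested genes. In each of the 9 genes the values of the groups overlapped; 0.826% of all tested genes had no overlap.

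**Figure D2:**
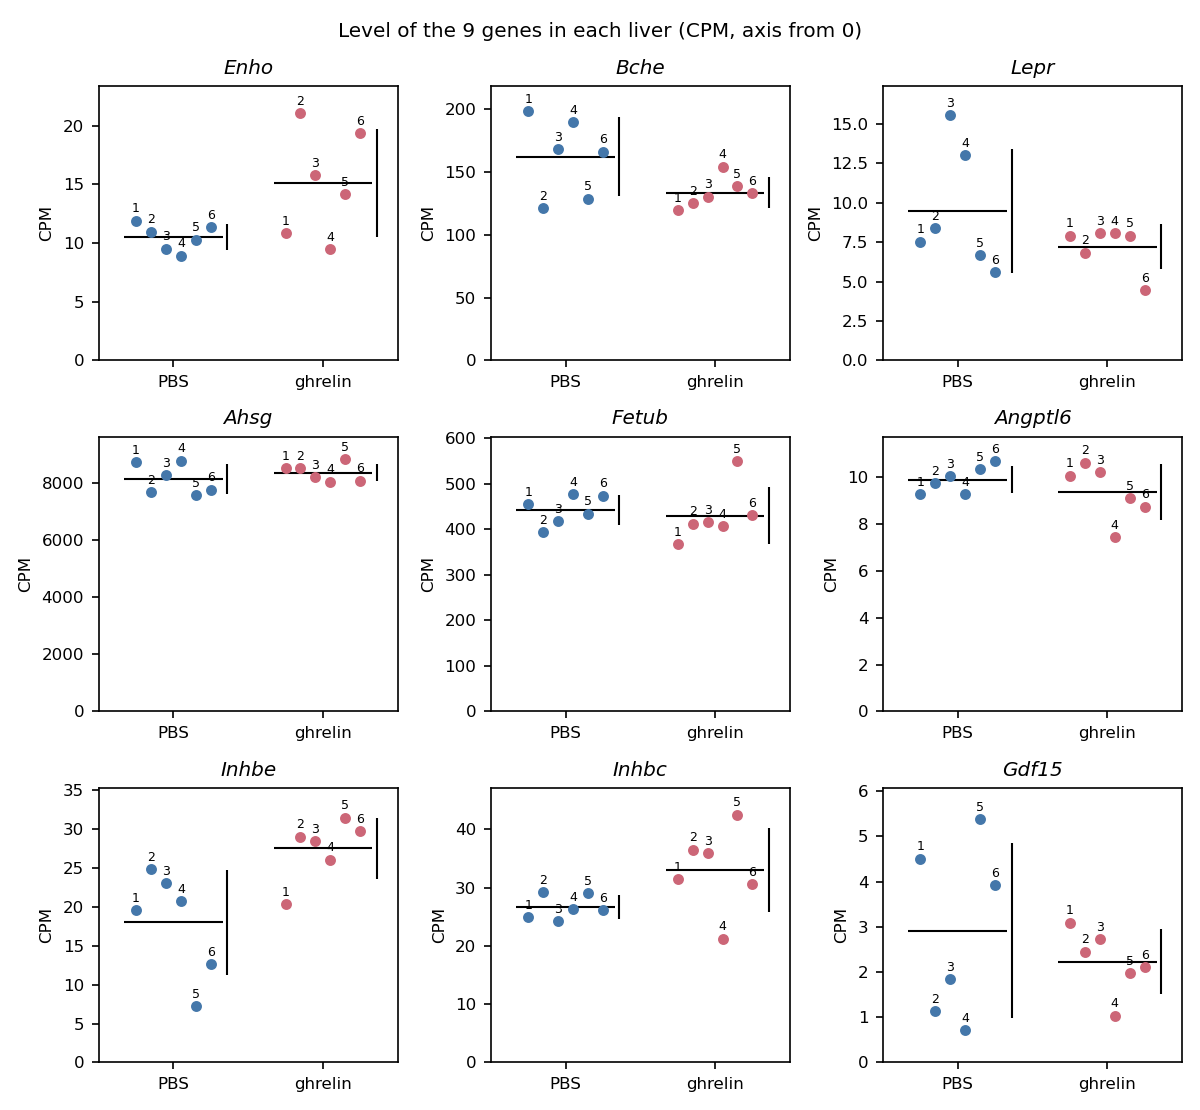
CPM of each gene in each liver, with the axis from 0; numbers are library numbers, horizontal lines are group means and vertical lines are 1 SD on either side of the mean, n = 6 per group. For Enho 4 ghrelin livers and for Inhbe and Inhbc 5 each lie above every PBS liver, and Gdf15 in PBS splits into 3 livers at 3.92 CPM or more and 3 at 1.85 CPM or less.

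Enho, the adropin gene, had 8.93, 10.6 and 11.9 CPM as its lowest, median and highest value in PBS, and 9.50, 14.98 and 21.04 CPM in ghrelin. The livers ghrelin 2, 3, 5 and 6 lay above every PBS liver, whereas ghrelin 1 and 4 lay within the PBS range. The means were 10.5 ± 1.13 and 15.1 ± 4.56 CPM (SD, n = 6 each), a log2 fold change of 0.52 (SE 0.17) that did not pass (edgeR adjusted p = 0.219, place 423 of 14170 by p). The estimate was 0.41 without ghrelin 2 and 0.63 without ghrelin 4. The antisense gene Gm12406 overlaps Enho on the opposite strand without sharing exon bases, and had 23 counts over all libraries against 2992 of Enho. Dnaic1, which shares 15 exon bases with it on the opposite strand, had 70 counts.

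Genes tied to Enho and to ghrelin were read from lists. Of the 9 nuclear receptor and clock genes linked to Enho all were tested, 6 positive and 3 negative, the median log2 fold change being 0.07, and none passed. Nr1d1, which encodes the repressor REV-ERB alpha, had 37.6 ± 6.41 CPM with PBS and 48.3 ± 2.83 CPM with ghrelin (log2 fold change 0.36, SE 0.10, edgeR adjusted p = 0.162), with 5 ghrelin livers above every PBS liver. DESeq2 gave it an adjusted p of 0.0414 and limma voom one of 0.148. Ppara, the fatty acid sensor, had 0.34 (SE 0.13) and Nr1h3, the oxysterol receptor LXR alpha, 0.12 (SE 0.07).

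In the ghrelin and adropin axis 6 of 9 genes were tested, 3 positive and 3 negative, with a median of -0.005, and none passed. Ghsr and Mboat4, the acyltransferase that activates ghrelin, had 0 counts in every library, and Ghrl had 2 counts in all. The limit that a count of 0 allows, 3 counts, is 0.0127 CPM over all libraries and covers counting error only. Leap2, a liver peptide that blocks the ghrelin receptor, had 32.8 ± 3.32 CPM with PBS and 32.1 ± 5.86 CPM with ghrelin. Nucb2, the precursor of nesfatin-1, showed a log2 fold change of 0.75 (SE 0.33, edgeR adjusted p = 0.346), and 0.31 without ghrelin 6, which had 17.9 CPM. Gpr19, an orphan receptor proposed for adropin, stood at 2.38 ± 0.737 and 2.42 ± 0.535 CPM in PBS and ghrelin.

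Bche had 121, 167 and 198 CPM as its lowest, median and highest value in PBS, and 120, 132 and 154 CPM in ghrelin. All ghrelin livers lay below the PBS median, but PBS 2 and PBS 5 fell inside the range of those livers. The means were 162 ± 31.3 and 133 ± 12.1 CPM, a log2 fold change of -0.28 (SE 0.11, edgeR adjusted p = 0.307). Bche lies on chromosome 3, 73635808 to 73708415, and no other annotated gene overlaps it. Its relative Ache, the acetylcholinesterase, had 53 counts over all libraries and was not tested. Lypla1, a thioesterase that also removes the acyl group of ghrelin, stood at 143 ± 20.2 CPM with PBS and 127 ± 10.3 CPM with ghrelin. Of 12 tested cholinesterases and liver carboxylesterases, Bche included, 4 were positive and 8 negative with a median of -0.12, and none passed. Carboxylesterases hydrolyse drug and lipid esters; Ces1b showed a log2 fold change of -0.41 (SE 0.11), Ces3a of 0.33 (SE 0.09) and Ces2c of 0.81 (SE 0.22). DESeq2 gave these 3 genes adjusted p of 0.0285, 0.0263 and 0.0226, and edgeR 0.151, 0.151 and 0.164. With limma voom the adjusted p were 0.167, 0.148 and 0.157. Genes of this family are close paralogs in a cluster, so the split of reads between them is uncertain.

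Lepr had 5.61, 7.96 and 15.6 CPM as its lowest, median and highest value in PBS, and 4.46, 7.92 and 8.09 CPM in ghrelin. PBS 3 with 15.6 CPM and PBS 4 with 13.0 CPM lay above all other livers. PBS 2 with 8.38 CPM lay just above the ghrelin range and the other 3 PBS livers within it. The log2 fold change was -0.39 (SE 0.23, edgeR adjusted p = 0.486), -0.19 without PBS 3 and -0.50 without PBS 6. Lepr lies on chromosome 4, 101717404 to 101815352, with 7 annotated transcripts, and the counts do not separate the signalling from the short and soluble forms. Leprot, upstream on the same strand, encodes a regulator of receptor traffic and shares no exon bases with Lepr in this annotation. It stood at 11.4 ± 0.825 CPM with PBS and 11.3 ± 1.15 CPM with ghrelin. The log2 ratio of Lepr to Leprot counts within a library was -0.36 ± 0.50 in PBS and -0.67 ± 0.44 in ghrelin, a difference of -0.31 (SE 0.27, exact two-sided permutation p = 0.29, smallest possible p 0.00217). It was -0.16 without PBS 3 and -0.13 without ghrelin 6. Of 11 tested genes of leptin receptor signalling, 6 were positive and 5 negative with a median of 0.01, and none passed. Socs3, a feedback inhibitor of cytokine receptors, showed a log2 fold change of 0.71 (SE 0.37, edgeR adjusted p = 0.415) and Sh2b1, an adaptor of the kinase JAK2, -0.14 (SE 0.08). Lep, which encodes leptin itself, had 1 count.

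The fetuin genes had the smallest log2 fold changes of the 9. Ahsg had 7581, 8025 and 8784 CPM as its lowest, median and highest value in PBS, and 8046, 8362 and 8838 CPM in ghrelin, a log2 fold change of 0.04 (SE 0.06, edgeR adjusted p = 0.811). Fetub had 394, 444 and 477 CPM in PBS and 366, 414 and 549 CPM in ghrelin, a log2 fold change of -0.04 (SE 0.09, edgeR adjusted p = 0.891). Ghrelin 5 held the highest Fetub value and ghrelin 1 the lowest. The genes are neighbours on chromosome 16, Ahsg at 22891277 to 22899449 and Fetub at 22918334 to 22939778, both on the plus strand and 18885 bases apart. The antisense gene Gm30505, without a row in the table used here, shares 62 exon bases with Ahsg, 2.82% of the exon bases of Ahsg. The log2 ratio of Ahsg to Fetub counts was 4.20 ± 0.106 in PBS and 4.29 ± 0.173 in ghrelin, a difference of 0.09 (SE 0.08, exact two-sided permutation p = 0.314); without ghrelin 5 it was 0.15 with p = 0.0498 by the same exact test. Hrg, the next gene of this cystatin cluster and a histidine-rich plasma glycoprotein, stood at 783 ± 61.3 and 797 ± 83.8 CPM in PBS and ghrelin. Of 7 tested genes of the cystatin list 3 were positive and 4 negative with a median of -0.001, and none passed; Kng2, a kininogen, showed a log2 fold change of -0.17 (SE 0.07) and Kng1 of -0.06 (SE 0.08).

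Angptl6 had 9.26, 9.88 and 10.7 CPM as its lowest, median and highest value in PBS, and 7.43, 9.58 and 10.6 CPM in ghrelin. Ghrelin 4, 5 and 6 lay below every PBS liver and ghrelin 1, 2 and 3 within the PBS range. The log2 fold change was -0.08 (SE 0.09, edgeR adjusted p = 0.727), and -0.02 without ghrelin 4. The gene lies on chromosome 9, 20873808 to 20879727, and shares 265 exon bases, 16.8% of its own, with A230050P20Rik on the opposite strand, which stood at 21.2 ± 6.26 CPM with PBS and 26.9 ± 4.28 CPM with ghrelin. The library kit keeps the strand, but no source says whether the counting used it, so the split of reads in that stretch is uncertain. Of 5 tested angiopoietin-like genes 2 were positive and 3 negative with a median of -0.08, and none passed. Gm6484, later named Angptl8, showed a log2 fold change of -0.39 (SE 0.33), which was -0.06 without PBS 2, at 52.8 CPM its highest library, and -0.19 without ghrelin 5. Angptl2 showed 0.16 (SE 0.09).

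The activin genes Inhbe and Inhbc lie 1911 bases apart on the minus strand of chromosome 10, Inhbe at 127348857 to 127354411 and Inhbc at 127356322 to 127370431. Inhbe had 7.27, 20.1 and 24.9 CPM as its lowest, median and highest value in PBS, and 20.3, 28.7 and 31.5 CPM in ghrelin. All ghrelin livers lay above the PBS median and 5 above every PBS liver, while PBS 5 with 7.27 CPM and PBS 6 with 12.6 CPM lay below all others. The means were 18.01 ± 6.74 and 27.5 ± 3.94 CPM, a log2 fold change of 0.61 (SE 0.22, edgeR adjusted p = 0.268). It was 0.45 without PBS 5 and 0.73 without PBS 2. Inhbc had 24.3, 26.2 and 29.2 CPM in PBS, and 21.2, 33.7 and 42.5 CPM in ghrelin, where 5 livers lay above and ghrelin 4 below every PBS liver. Its log2 fold change was 0.31 (SE 0.12, edgeR adjusted p = 0.307), and 0.41 without ghrelin 4 (edgeR adjusted p = 0.0713). Inhbc shares 268 exon bases, 14.4% of its own, with the antisense gene Gm47200, which has no row in the table used here. As for Angptl6, reads of that stretch cannot be assigned to a strand with certainty.

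The low Inhbe values of PBS 5 and PBS 6 had no counterpart in Inhbc, which stood at 29.1 and 26.1 CPM there. The share of Inhbe in the reads per kb of both genes was 8.03% in PBS 5, 14.4% in PBS 6 and 21.5 to 24.9% in the other PBS livers. Over the groups it was 18.9 ± 6.41% in PBS and 23.0 ± 4.14% in ghrelin, a difference of 4.06 percentage points (SE 3.11, exact two-sided permutation p = 0.247). It was 1.88 points without PBS 5 and 2.64 points without ghrelin 4. The share depends on the gene model: with the RefSeq gene span of Inhbe it was 33.1 ± 9.87% in PBS and 39.2 ± 5.45% in ghrelin, a difference of 6.02 points (exact two-sided permutation p = 0.234). Of 15 tested activin, inhibin and receptor genes 11 were positive and 4 negative with a median of 0.05, and none passed. The other activin subunits Inhba and Inhbb stood at 1.66 ± 0.487 and 8.18 ± 2.13 CPM in PBS and at 1.67 ± 0.633 and 8.30 ± 3.76 CPM in ghrelin. Acvr2a, a type II activin receptor, showed a log2 fold change of -0.19 (SE 0.07, edgeR adjusted p = 0.248).

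Gdf15 had 0.712, 2.89 and 5.39 CPM as its lowest, median and highest value in PBS, and 1.03, 2.28 and 3.10 CPM in ghrelin. PBS 1, PBS 5 and PBS 6 lay at 4.51, 5.39 and 3.92 CPM, above every ghrelin liver, and PBS 2 and PBS 3 at 1.13 and 1.85 CPM, within the ghrelin range, with PBS 4 at 0.712 CPM below it. The log2 fold change was -0.40 (SE 0.41, edgeR adjusted p = 0.707), and -0.13 without PBS 5. It was -0.24 without PBS 1, -0.25 without ghrelin 4 and -0.17 by limma voom. With 617 counts over all libraries Gdf15 was the member with the fewest reads. Its receptor gene Gfral had 0 counts. Of 11 tested genes around GDF15 and the integrated stress response, a programme run by the transcription factor ATF4, 6 were positive and 5 negative with a median of 0.04, and none passed. Atf4 itself stood at 87.2 ± 8.86 CPM with PBS and 70.7 ± 5.94 CPM with ghrelin (log2 fold change -0.30, SE 0.08), and every ghrelin liver lay below every PBS liver. Its adjusted p was 0.139 with edgeR, 0.0196 with DESeq2 and 0.14 with limma voom. Asns, the asparagine synthetase, showed a log2 fold change of 0.64 (SE 0.39), which was 0.40 without ghrelin 3 and 0.42 without ghrelin 5. Atf3, a stress factor, had -1.94 (SE 0.66, edgeR adjusted p = 0.248), with 10.6 CPM in PBS 5 and at most 2.14 CPM in any other liver; without PBS 5 it was -0.67, and -1.14 by limma voom. Fgf21, another hepatokine of this programme, stood at 1.10 ± 1.07 CPM with PBS and 0.689 ± 0.374 CPM with ghrelin.

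**Figure D3:**
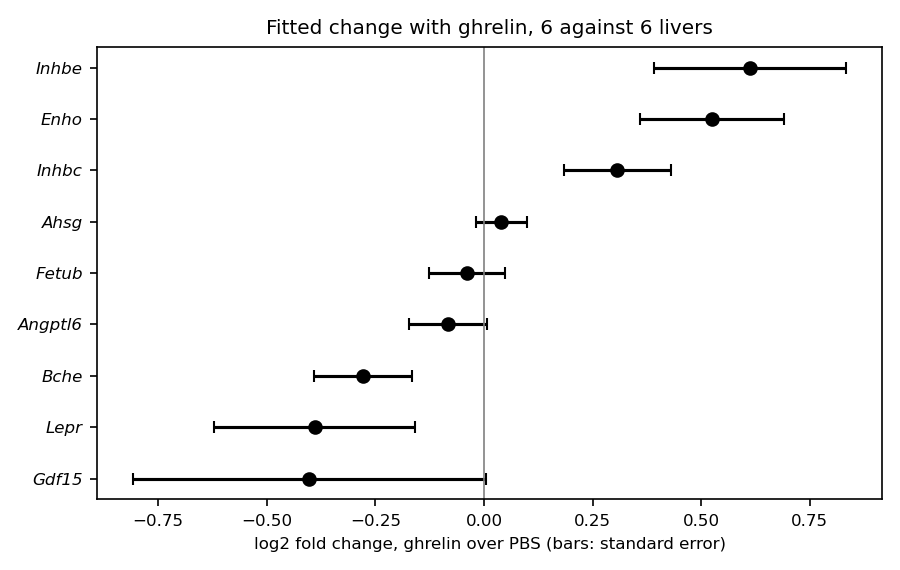
Log2 fold change of the 9 genes, ghrelin over PBS, from the edgeR fit on all genes; bars are 1 standard error, n = 6 livers per group. Inhbe at 0.61, Enho at 0.52 and Inhbc at 0.31 lie to the right and Gdf15 at -0.40, Lepr at -0.39 and Bche at -0.28 to the left, none past the adjusted threshold.

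Among 24 tested genes for other secreted liver hormones and carriers, 8 were positive and 16 negative with a median of -0.05. Serpina7, thyroxine-binding globulin, was the 1 gene that passed: it fell by 1.42 on the log2 scale (SE 0.21, edgeR adjusted p = 0.0206), with an adjusted p of 0.0545 without ghrelin 1, 0.0566 without ghrelin 3 and 0.0839 with robust estimation. Serpina12, the adipokine vaspin, stood at 21.6 ± 7.75 CPM with PBS and 39.9 ± 13.0 CPM with ghrelin (log2 fold change 0.89, SE 0.24, edgeR adjusted p = 0.161). Smoc1, a secreted glucose-lowering factor, had -0.25 (SE 0.09) and Apom, a carrier of sphingosine 1-phosphate, 0.15 (SE 0.06).

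The members differed in how much livers of the same treatment varied. The coefficient of variation of CPM was 66.5% for Gdf15, 41.6% for Lepr and 37.4% for Inhbe in PBS, and 32.0%, 19.8% and 14.3% in ghrelin. For these 3 genes the biological coefficient of variation of the edgeR fit lay at the 99.2, 92.8 and 92.6 percentile of all tested genes. Enho went the other way, with 10.7% in PBS and 30.2% in ghrelin, as did Inhbc with 7.78% and 21.8%, Fetub with 7.45% and 14.4%, and Angptl6 with 5.79% and 12.6%. Ahsg was the steadiest in ghrelin, at 6.59% and 3.66%. These differences in spread are a description of 6 livers each and were not tested.

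**Figure D4:**
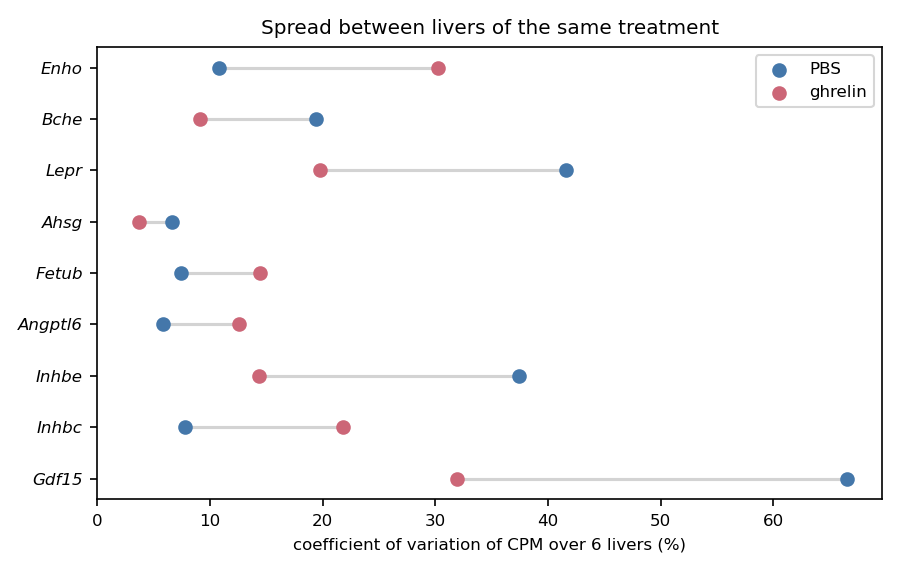
Coefficient of variation of CPM over 6 livers of each group, PBS in blue and ghrelin in red, joined by a grey line for each gene. Gdf15, Lepr and Inhbe are more spread in PBS (66.5%, 41.6% and 37.4%), while Enho and Inhbc are more spread in ghrelin (30.2% and 21.8%).

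Pairs of members, and each member with Cish, Saa1 and Nr1d1, were related across the 12 livers after group means were taken out. None of the 63 relations passed a Benjamini-Hochberg adjusted p under 0.05. Saa1, an acute phase gene, ranged from 41.6 to 1225 CPM. It stood at 41.6 to 76.4 CPM in PBS 1, 5 and 6 and ghrelin 1, 3 and 6. In PBS 2, 3 and 4 and ghrelin 2, 4 and 5 it stood at 168 to 1225 CPM. The coefficients for Saa1 thus rest in part on a contrast between these sets of livers. Gdf15 was lower where Saa1 was higher, with Pearson r = -0.83 (permutation p = 0.00556, adjusted 0.117) and Spearman rho = -0.85 (permutation p = 0.0105, adjusted 0.139). The r was -0.88 within PBS and -0.74 within ghrelin, and -0.81 without the 2 livers farthest on Saa1, PBS 3 and PBS 4. Lepr went the other way, with r = 0.79 (permutation p = 0.00465, adjusted 0.117) and rho = 0.85 (permutation p = 0.0018, adjusted 0.113). Its r was 0.93 within PBS, 0.51 within ghrelin and 0.64 without PBS 3 and PBS 4.

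Cish, a feedback gene of growth hormone signalling, fell into separate ranges, 0.990 to 4.60 CPM in 7 livers and 13.1 to 27.1 CPM in PBS 2, 3 and 4 and ghrelin 2 and 4, so no coefficient over all livers is given for it. The 4 lowest Gdf15 values, 0.712 to 1.85 CPM, all lay in livers of the upper Cish range. The fifth liver of that range, ghrelin 2, had 2.45 CPM. All livers of the upper Cish range were also among those high in Saa1, so relations with Cish and with Saa1 cannot be told apart here. Enho against Nr1d1 gave r = 0.19 (permutation p = 0.339, adjusted 0.69) and rho = 0.22 (permutation p = 0.437, adjusted 0.748).

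**Figure D5:**
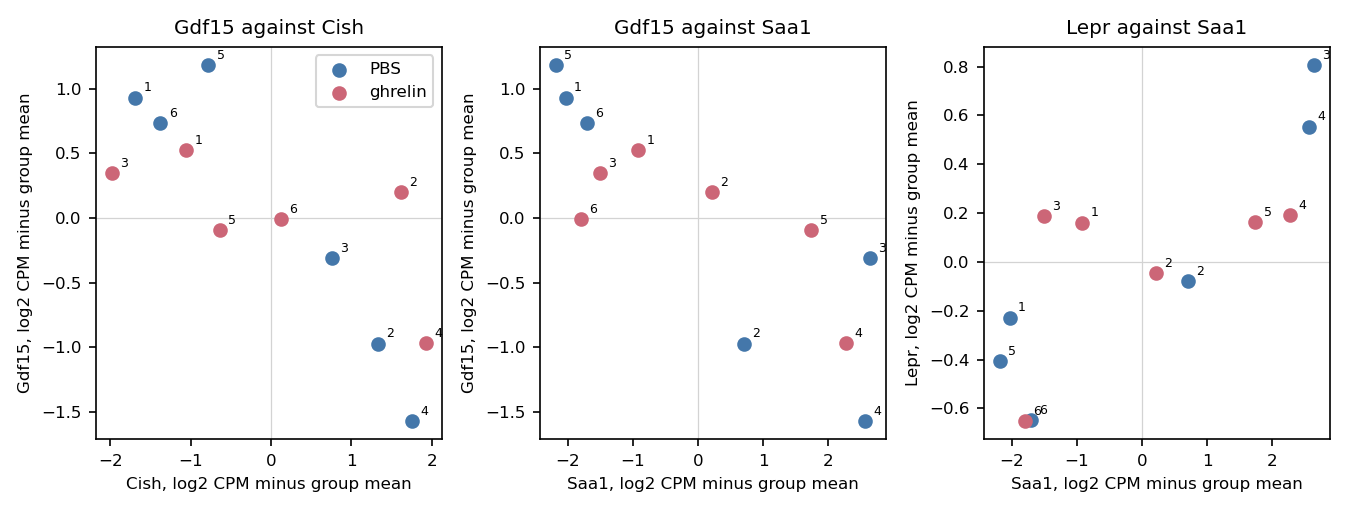
Gdf15 against Cish, Gdf15 against Saa1 and Lepr against Saa1, each as log2 CPM minus the mean of its group; points are livers, numbered by library, PBS in blue and ghrelin in red. Gdf15 runs downward over Saa1 (r = -0.83) and Lepr upward (r = 0.79), with PBS 3 and PBS 4 at the far right; neither passed after adjustment over 63 relations.

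Among 11286 tested genes with a mean of at least 1 CPM, those whose group-centred log2 CPM was most like that of a member over the 12 livers are named with Pearson's r as the measure of likeness and no test, since they were picked for it. Nearest to Enho were Efna5 (0.89), Ptafr (0.87) and Stk25 (0.87). Nearest to Bche were Serpina6 (0.89), Ttpa (0.89) and Cyp2c54 (0.86). Nearest to Gdf15 were Vkorc1 (0.97), Cldn3 (0.94) and Khnyn (0.93), to Inhbe Abcc5 (0.93), Slc39a9 (0.92) and Zfp456 (0.90), and to Inhbc Il2rb (0.94), Rbm42 (0.93) and Ap3d1 (0.91). Nearest to Lepr were Ccar1 (0.92), Fam35a (0.91) and Zfp263 (0.90), to Ahsg Sec24a (0.86), Ddx6 (0.84) and Pcnx (0.84), to Fetub Spg11 (0.90) and Proz (0.88), and to Angptl6 Gtdc2 (0.88), Nom1 (0.87) and Atn1 (0.87). The points share their libraries, depth and scaling.

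Total counts ranged from 15775059 to 22302533 per library. Hepatocyte markers summed to 106787 to 142406 CPM in PBS and 103155 to 118748 CPM in ghrelin, with 10 of 10 tested and none called. Markers of other cells in which Lepr or Gdf15 can be expressed had overlapping ranges. Stellate cell markers (8 of 8 tested) summed to 423 to 476 CPM in PBS and 414 to 474 CPM in ghrelin, endothelial markers (8 of 8) to 407 to 461 and 421 to 453 CPM, and Kupffer cell markers (7 of 8) to 165 to 303 and 215 to 291 CPM. Neutrophil markers (3 of 6 tested, none called) summed to only 3.76 to 9.33 CPM in PBS and 0.816 to 4.40 CPM in ghrelin. Their part in the values of the members was not tested, and in bulk liver fewer cells of a type and less RNA per cell cannot be told apart.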

How the data were processed

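The deposited table holds raw counts per gene for 12 libraries, not normalised, made by the authors with STAR 2.4.0i on mm10 according to the submitters' processing notes; which counter, annotation and strand setting were used, and how multiply mapping reads were handled, is not stated there. Libraries were grouped by their labels. Within each group, every pair differed by 10.8 to 44.4 in chi-square over degrees of freedom, above sampling noise. Genes were filtered with filterByExpr (minimum count 10, total 15), scaled by TMM and tested with the quasi-likelihood F test of edgeR 4.0.16 in R 4.3.3, with Benjamini-Hochberg adjustment over all 14170 tested genes; the SE is the absolute log2 fold change over the square root of F. Ratios within a library were compared by exact permutation over all 924 assignments, relations by permutation within groups (100000 resamples) on log2 CPM with a prior count of 2. The fit was also run on counts simulated from its own means and dispersions, and no statement here rests on that run. How small a change the test could call in these libraries is not given here. Positions and exon lengths come from GENCODE M21, promoters from RefSeq on GRCm38.p6. Named were all 9 members, per list every called gene and up to 3 others of smallest p, preset genes, genes overlapping a member, and up to 3 most alike genes for each member; Ache was added after its values were seen. Some genes that this rule names are not reported here. The members and lists were chosen with earlier results of these data known. Alternatives were DESeq2 1.42.0, limma 3.58.1 (voom), other scalings and filters, a replicate block and each library left out.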

Additional observations from a re-analysis of the deposited data

Results flagged for a closer look

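Among 24 groups of 6 livers examined for a value far from the rest by Dixon's criterion, 3 held one, where chance gives about 1 in 20. Lepr stood at 4.46 CPM in ghrelin 6, below the 6.84 CPM of the next lowest ghrelin liver. The log2 ratio of Lepr to Leprot counts was -1.53 in ghrelin 6, and lay between -0.62 and -0.32 in the other ghrelin livers. This ratio rests on the same Lepr count of ghrelin 6, so it is not a separate finding. Groups of ratios and of their genes are not independent. Fetub stood at 549 CPM in ghrelin 5, above the 430 CPM of the next highest ghrelin liver.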

How the results depend on the processing

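None of the 9 members was called under any alternative to the edgeR fit. All kept the sign of their log2 fold change except Fetub, which ranged from -0.117 without ghrelin 5 to 0.006 without ghrelin 1. Ahsg ranged from 0.025 without PBS 5 to 0.067 without PBS 1, and Kng1 from -0.113 without ghrelin 5 to -0.027 without ghrelin 2. The number of genes called over the whole table was 15, but 221 with DESeq2, 63 without a filter and 9 with robust estimation. With each library left out in turn it ranged from 0 to 32. It was 0 when either ghrelin 1 or ghrelin 3 was dropped. Dropping PBS 3 gave 5 genes, ghrelin 6 gave 6 and ghrelin 2 gave 9, whereas dropping PBS 6 gave 23, PBS 5 gave 24 and ghrelin 4 gave 32. No label says that equal library numbers mark a shared animal, day or cage. Deviations of same-numbered libraries correlated at -0.081 to 0.272. Only PBS 4 and ghrelin 1, 4 and 6 were most like the library of their own number in the other group. The fit with the replicate block called 58 genes and none of the members. With the block the log2 fold change of Gdf15 was -0.227. Left out in turn, the share of Inhbe differed by 1.88 to 5.26 percentage points, the log2 ratio of Ahsg to Fetub by 0.04015 to 0.1458 and that of Lepr to Leprot by -0.43 to -0.13. By the length of the longest transcript the PBS levels were 5483 CPM per kb for Ahsg and 276.6 for Fetub. With the RefSeq gene span of Inhbe, chosen after seeing the data, its PBS level was 7.36 CPM per kb. Beyond the lengths themselves, the causes of these shifts were not tested. Gdf15, with 617 counts, and Lepr, with 1977, have the least depth of the 9.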
